A study of Mus musculus with 3 samples.

Results

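The transcripts of the RB pocket proteins and of the E2F factors were examined in stable murine BCR::ABL1+ leukemic lines that carry a kinase inactive CDK6. The members were chosen by gene symbol, as the 3 pocket protein genes Rb1, Rbl1 and Rbl2 and the 7 E2F genes E2f1, E2f2, E2f3, E2f4, E2f6, E2f7 and E2f8, which makes 10 of the 50686 genes in the count table. All 10 were detected in every line and passed the minimum of 10 counts over the lines, as did 13974 genes in all. Poly(A) RNA was sequenced from 3 lines of 1 genotype, Cdk6 KM/KM, called K43M in the sample record, here numbered 1, 2 and 3. Bone marrow of mice homozygous for the mutant Cdk6 was transduced with a retrovirus for BCR::ABL1 (p185), and each library came from a separately established line, so all lines share the mutant allele and the oncogene and each is 1 outgrowth. The age of the mice was not given in the sources used here. The lines of the other genotypes were not analysed here, so levels, proportions and the spread between lines are given and no genotype was compared.

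RB, p107 and p130, encoded by Rb1, Rbl1 and Rbl2, are pocket proteins that bind E2F transcription factors and hold back genes for DNA replication. D-type cyclins with CDK4 or CDK6, and later cyclin E with CDK2, phosphorylate the pocket proteins and release the E2Fs, which lets a cell pass from G1 into S phase. E2F1, E2F2 and E2F3 are known as activators of these genes. E2F4 represses with p107 and p130, E2F6 represses with Polycomb-type complexes without a pocket protein, and E2F7 and E2F8 repress E2F target genes late in the cycle. Several genes of the family are themselves E2F targets, and in lymphoid precursors the family governs expansion of the pool.

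Short sequences ahead of a gene's start can show whether the letters that E2F proteins recognise are present. RefSeq windows of the assembly GRCm38.p6 (mm10) from 250 bases before to 50 bases after each start were given for 8 of the 10 genes, with 10 windows in all, and none for Rb1 and E2f4. Each window was searched on both strands for the 8-letter motifs TTTCCCGC, TTTGGCGC, TTTCGCGC and TTTGCCGC and for the 7-letter motifs TTCCCGC and TTGGCGC, which lie within the first and the second of the longer ones. Rbl1, E2f2, E2f3, E2f7 and E2f8, 5 of the 8 genes, held a match, and no match was found in the windows of Rbl2, E2f1 and E2f6. The stretches printed here are the upstream parts that hold the matches, written 5′ to 3′ on the gene's strand with each match in capitals. The Rbl1 stretch spans chr2:157204535-157204634 on the minus strand, the E2f3 stretch chr13:29986064-29986163 on the minus strand, the E2f7 stretch chr10:110745189-110745368 on the plus strand and the E2f8 stretch chr7:48881647-48881746 on the minus strand.
Rbl1: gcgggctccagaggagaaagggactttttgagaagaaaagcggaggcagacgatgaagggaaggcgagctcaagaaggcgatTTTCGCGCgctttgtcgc
E2f3: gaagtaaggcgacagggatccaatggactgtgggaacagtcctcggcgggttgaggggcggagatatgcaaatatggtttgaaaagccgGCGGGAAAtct
E2f7: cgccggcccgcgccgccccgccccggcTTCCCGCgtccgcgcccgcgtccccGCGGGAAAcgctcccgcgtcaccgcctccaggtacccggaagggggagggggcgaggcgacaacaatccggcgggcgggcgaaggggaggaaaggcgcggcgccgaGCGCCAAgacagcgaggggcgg
E2f8: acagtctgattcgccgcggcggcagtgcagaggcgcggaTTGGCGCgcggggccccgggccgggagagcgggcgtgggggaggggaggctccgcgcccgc

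In Rbl1 the match TTTCGCGC began 18 bases before the start. In E2f3 the capitals are the reverse complement of TTTCCCGC, from 11 to 4 bases before the start of the first window, and a second match, TTGGCGC, began 19 bases after it. E2f7 held the most matches, at 223, 198 and 92 bases before the start, of which the middle one is TTTCCCGC on the opposite strand. E2f8 held TTGGCGC from 111 bases before its start, and E2f2 held TTTGGCGC from 40 bases after its RefSeq start. At least 1 of the 6 motifs was present in 7.44% of all 32851 windows, in 12.8% of the 12409 windows of genes with at least 10 counts, and in 14.4% of the 10576 such windows with a GC content of at least 50%. These shares count windows, whereas the matches above were counted by gene, and E2f2 and E2f3 had more than 1 window. The E2f1 window starts from a RefSeq position 466 bases inside the Gencode gene and may not cover its main start. The first RefSeq start of E2f2, at 136172274, lies ahead of its Gencode gene start at 136172394, and so does its match. The second windows of E2f2 and E2f3 were taken from RefSeq starts 8388 and 1672 bases inside their Gencode genes. A match is a description of letters, and binding was not measured in these libraries.

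**Figure D1:**
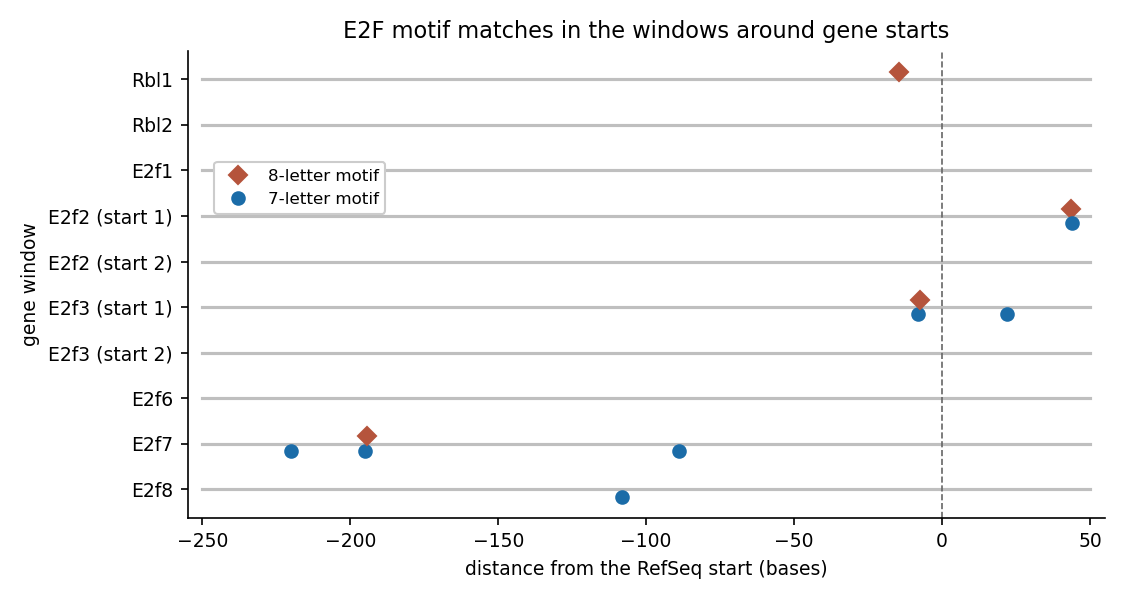
Positions of E2F motif matches, in bases from the RefSeq start (dashed line), in the 10 windows of 8 genes. Diamonds mark 8-letter and circles 7-letter motifs, and a circle beneath a diamond lies within the same letters. E2f7 holds matches at 3 places, E2f3 at 2 and Rbl1, E2f2 and E2f8 at 1 each.

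The libraries held 21569845, 19633463 and 25773221 counts on genes in lines 1, 2 and 3, and the 10 genes took 0.0984%, 0.110% and 0.107% of them. A count of 0 allows up to 3 counts, or 0.118 to 0.152 CPM, the counts scaled to a fixed library size, and such limits cover counting error only. All 10 precursor B-lineage markers were detected, 9 of them at 1 CPM or more in each line, and they summed to 3857, 4211 and 4023 CPM. Summed markers of T cells (0.152 to 0.432 CPM, 3 of 6 at 0, Trac leading), myeloid cells (1.75 to 3.93 CPM, 2 of 6 at 0, Lyz2 leading) and erythroid cells (0.118 to 0.323 CPM, 2 of 4 at 0, Klf1 leading) were low, and all 4 stromal markers were at 0. Line 3 stood apart in sex-linked transcripts, with Xist at 53.0 CPM against 0.830 and 0.760 CPM, and Uty, Kdm5d and Eif2s3y summing to 0.236 CPM against 154 and 113 CPM in lines 1 and 2. A difference in sex of origin and any other difference of line 3 cannot be told apart, so values without line 3 are given where results rest on it.

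Levels were compared between genes only as CPM per kb of annotated exon. E2f4 was the highest at 114 ± 7.93 CPM per kb (SD, n = 3) and E2f8 the next at 51.0 ± 2.39 CPM per kb, so that the 2 leading transcripts encode repressors. E2f2, Rbl1 and E2f1 lay together between 17.9 and 22.4 CPM per kb on average. E2f3 had 9.52 and Rb1 9.19 CPM per kb, and Rbl2, E2f7 and E2f6 were the lowest, between 3.15 and 5.72 CPM per kb. Gene counts do not separate the isoforms of a gene, such as the long and the short form of E2f3. In bulk RNA, fewer cells that express a gene and less RNA per cell cannot be told apart, and this holds for cells in a given cycle phase too.

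**Figure D2:**
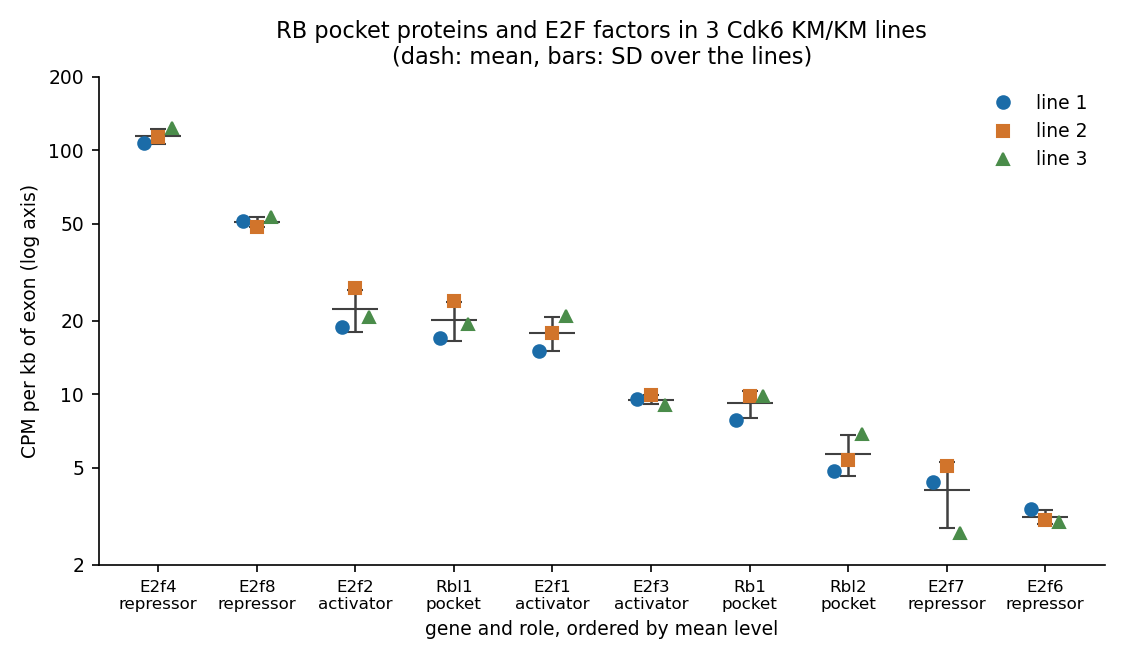
Level of each gene in CPM per kb of exon on a log axis, ordered by the mean, with 1 point per line, a dash for the mean and bars for the SD over the 3 lines. E2f4 at 114 and E2f8 at 51.0 CPM per kb lie above the other 8 genes in every line.

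Among the pocket proteins, Rbl1 was the highest. Rbl1 (ENSMUSG00000027641.13), which encodes p107, a partner of E2F4 in cycling cells, lies on chr2:157145893-157204534 of mm10 on the minus strand with 22 exons in its longest transcript. Lines 1, 2 and 3 gave 2218, 2862 and 2964 reads, which scaled to 102, 145 and 116 CPM. Line 2 was above both others and line 1 was the lowest. The mean was 121 ± 21.8 CPM (SD, n = 3), or 20.2 ± 3.64 CPM per kb.

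Rb1 (ENSMUSG00000022105.6), the retinoblastoma tumor suppressor, lies on chr14:73183673-73325822 on the minus strand with 27 exons in its longest transcript. Its 1023, 1173 and 1509 counts corresponded to 47.1, 59.4 and 59.3 CPM. Lines 2 and 3 were alike and line 1 was lower, and the average over lines was 55.3 ± 7.05 CPM (SD, n = 3). The protein-coding genes Rcbtb2 and Lpar6 on the opposite strand share 8.11% and 6.78% of the exonic bases of Rb1. Rcbtb2 was counted 2940, 2343 and 2443 times, more than Rb1 in each line and most in line 1. Lpar6 was counted 745, 760 and 785 times. Whether reads were assigned by strand, or left out where genes overlap, was not given in the sources used here. Reads of these genes and of Rb1 therefore cannot be told apart in the shared bases.

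Rbl2 (ENSMUSG00000031666.15) encodes p130, the pocket protein best known from resting cells, and lies on chr8:91070057-91123844 on the plus strand with 22 exons. It had 793, 806 and 1330 counts, or 36.5, 40.8 and 52.2 CPM. Line 3 was the highest and lines 1 and 2 lay closer together, with a mean of 43.2 ± 8.11 CPM (SD, n = 3). Rbl2 shares 9.17% of its exonic bases with Aktip and 11.8% with Gm45464 on the opposite strand. Aktip itself was counted 292, 281 and 426 times and was also highest in line 3, and Gm45464 was counted at most 3 times. The part of the shared bases in the Rbl2 counts was not tested.

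Within each line, Rbl1 made up 57.4%, 61.3% and 53.7% of the summed pocket protein transcripts per kb, Rb1 made up 26.4%, 25.03% and 27.2%, and Rbl2 made up 16.3%, 13.7% and 19.1%. The order Rbl1, Rb1, Rbl2 was the same in all 3 lines. Rbl1 exceeded Rb1 in level per kb by 2.20 ± 0.240 times (SD, n = 3) and Rbl2 by 3.61 ± 0.837 times. The summed level of the pocket proteins was 29.7, 39.5 and 36.2 CPM per kb, lowest in line 1.

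The activator E2Fs were expressed at moderate levels, and E2f3 was the lowest of them. E2f2 (ENSMUSG00000018983.9), on chr4:136172394-136196057 on the plus strand with 7 exons, had 2003, 2634 and 2588 counts, or 92.3, 133.5 and 101.6 CPM. As for Rbl1, line 2 was the highest and line 1 the lowest, with a mean of 109 ± 21.6 CPM (SD, n = 3). E2f1 (ENSMUSG00000027490.17), the activator that can also trigger apoptosis, lies on chr2:154559407-154569892 on the minus strand with 7 exons and had 1035, 1106 and 1677 counts, or 47.7, 56.0 and 65.9 CPM. Its level was highest in line 3 and lowest in line 1, with a mean of 56.5 ± 9.09 CPM (SD, n = 3). E2f3 (ENSMUSG00000016477.17), on chr13:29906575-29986063 on the minus strand with 7 exons, had 1124, 1065 and 1256 counts, or 51.8, 54.0 and 49.3 CPM. The 3 lines were close for E2f3, around 51.7 ± 2.32 CPM (SD, n = 3).

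The proportion of E2f2 to E2f1 per kb varied between lines, at 1.25 in line 1, 1.54 in line 2 and 0.997 in line 3. E2f2 thus exceeded E2f1 in lines 1 and 2, and both were level in line 3. With the longest transcript as the length, the proportion was 1.125, 1.385 and 0.897 in lines 1, 2 and 3. Of the summed activator transcripts per kb, E2f2 made up 44.7 ± 4.48%, E2f1 36.0 ± 4.57% and E2f3 19.3 ± 2.27% (SD, n = 3).

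Among the repressor E2Fs, E2f4 and E2f8 were abundant and E2f6 and E2f7 were low. E2f4 (ENSMUSG00000014859.9), on chr8:105297663-105305370 on the plus strand with 10 exons, had 5703, 5467 and 7672 counts, or 263, 277 and 301 CPM. It was highest in line 3 and lowest in line 1, with a narrow spread around a mean of 280.4 ± 19.5 CPM (SD, n = 3). E2f6 (ENSMUSG00000057469.7), on chr12:16810963-16839742 on the plus strand with 4 exons in its longest transcript, had 416, 342 and 434 counts, or 19.2, 17.3 and 17.04 CPM. It was the lowest of the 10 genes in mean level per kb, at 3.15 ± 0.204 CPM per kb (SD, n = 3), and line 1 was only slightly above the others. E2f4 exceeded E2f6 by 31.7, 36.9 and 40.8 times per kb in lines 1, 2 and 3, and by 20.8, 24.2 and 26.8 times with the longest transcript as the length.

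The atypical repressors E2F7 and E2F8 bind DNA without a DP partner and act on shared targets, yet their transcripts stood far apart. E2f8 (ENSMUSG00000046179.17), on chr7:48866429-48881596 on the minus strand with 13 exons, had 6041, 5212 and 7388 counts, or 278, 264 and 290 CPM. The lines lay close together, with line 2 the lowest, at a mean of 277.5 ± 13.03 CPM (SD, n = 3). E2f7 (ENSMUSG00000020185.16), on chr10:110745439-110787384 on the plus strand with 13 exons, had 859, 902 and 623 counts, or 39.6, 45.7 and 24.5 CPM. Line 3 was well below lines 1 and 2, and the mean was 36.6 ± 10.9 CPM (SD, n = 3). Per kb, E2f8 exceeded E2f7 by 11.6 times in line 1, 9.56 times in line 2 and 19.6 times in line 3.

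The opposite-strand transcript Gm2788 shares 11.2% of the exonic bases of E2f8 and was counted 485, 309 and 555 times, also lowest in line 2. Its counts were small beside those of E2f8, and its part in them was not tested. E2f7 shares 0.955% of its exonic bases with 1700020G17Rik, which was counted 2 times in line 1 and not in lines 2 and 3. Of the 50-base stretches of 1 transcript per gene, 11.3% of those of Rbl2, 10.5% of E2f8, 2.03% of E2f1, 1.26% of Rb1 and 0.719% of E2f7 were found in transcripts of other genes on either strand. No shared stretch was found for Rbl1, E2f2, E2f3, E2f4 and E2f6.

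Repressor transcripts outweighed activator transcripts in all 3 lines. The activators summed to 43.6, 55.1 and 50.8 CPM per kb and the repressors to 166, 170 and 182 CPM per kb in lines 1, 2 and 3. The repressor sum was 3.81, 3.08 and 3.58 times the activator sum, with a mean of 3.49 ± 0.374 (SD, n = 3). E2f4 made up 51.4 ± 1.29% of the summed transcripts of the 7 E2F genes per kb and E2f8 23.0 ± 1.40% (SD, n = 3). With E2f5 added to the sum, E2f4 made up 49.4 ± 1.18% and E2f8 22.1 ± 1.51%. Set against E2f7 and E2f8 alone, the activators were at 0.784, 1.03 and 0.907 of their sum, or 0.568, 0.740 and 0.662 with the longest transcript as the length, and against E2f4 and E2f6 they were at 0.394, 0.474 and 0.403. The pocket proteins summed to 0.682, 0.717 and 0.713 of the activators, with a mean of 0.704 ± 0.0189 (SD, n = 3), while both sums were lowest in line 1. With the longest transcript as the length, they were at 0.821, 0.861 and 0.859 of the activators, so the proportion depended on the length taken. These are proportions of RNA, and protein amounts and phosphorylation were not measured here.

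**Figure D3:**
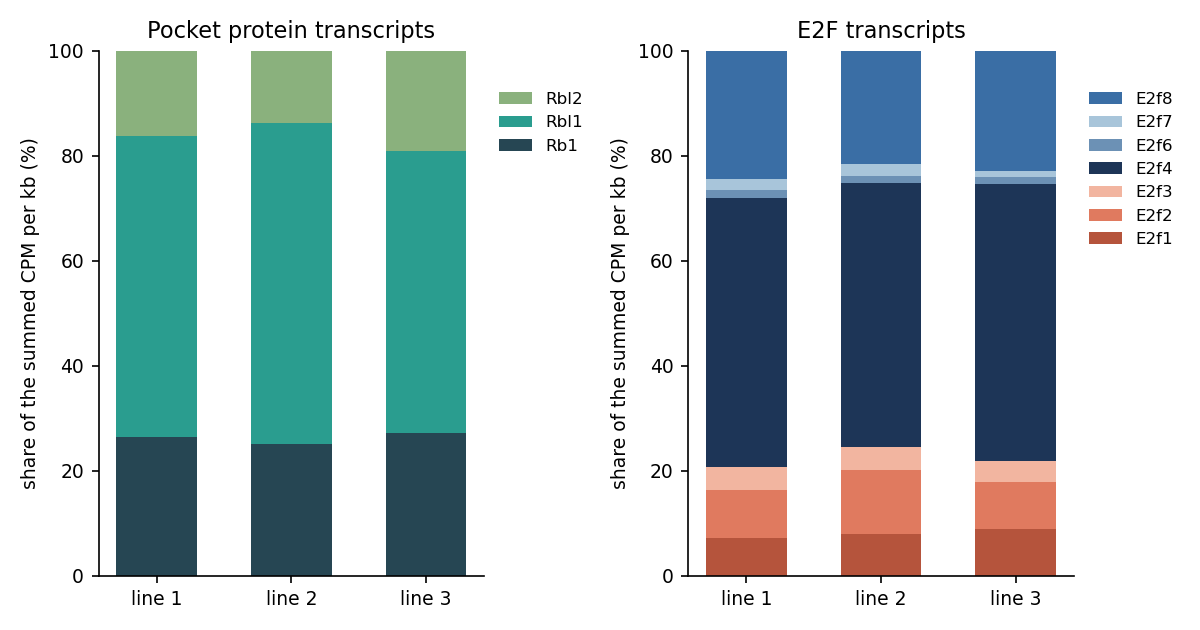
Share of each gene in the summed CPM per kb of the pocket proteins (left) and of the 7 E2F genes (right), in percent, with 1 bar per line. With all annotated exons as the length, Rbl1 takes more than 50% of the pocket protein transcripts in each line. By that length, E2f4 takes more than 50% of the transcripts of these 7 E2F genes in each line.

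In the order of the level per kb, 4 of the 9 steps separated genes whose ranges over the lines did not overlap. These steps lay between E2f4 and E2f8 (2.24 times), between E2f8 and E2f2 (2.28 times), between E2f1 and E2f3 (1.88 times) and between Rb1 and Rbl2 (1.61 times). E2f2, Rbl1 and E2f1 overlapped with their neighbours in the order, as did E2f3 with Rb1, and Rbl2 and E2f6 with E2f7. With the longest transcript in place of all annotated exons as the length, Rbl1 came before E2f2 and Rb1 before E2f3, and the step above Rbl2 was no longer clear of overlap.

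The spread between lines differed widely among the 10 genes. The range, taken as the highest minus the lowest log2(CPM + 1), was largest for E2f7 at 0.88 and smallest for E2f3 at 0.13. E2f2 had a range of 0.53, Rbl1 and Rbl2 of 0.50 each, E2f1 of 0.46 and Rb1 of 0.33. E2f4 had a range of 0.20, E2f6 of 0.16 and E2f8 of 0.14. The median range of the 10 genes was 0.39, beside 0.32 over all genes tested and 0.27 over the 7877 tested genes with at least 1000 counts. With any 1 line left out it was 0.18, beside 0.18 to 0.21 over all genes tested and 0.15 to 0.17 over those with at least 1000 counts. Each gene was also placed among the 1000 tested genes nearest in level, and the ranges fell between percentile 14.6 for E2f6 and percentile 87.8 for E2f7. Leaving out the highest or the lowest line narrows the range of any gene, and the median over all genes tested fell too. The range of E2f7 was 0.20 without line 3 and that of Rbl2 0.15 without line 3. That of E2f2 was 0.12 without line 2 and that of Rb1 0.01 without line 1. The range of Rbl1 was 0.17 without line 2 and 0.32 without line 1, and that of E2f1 was 0.22 without line 3 and 0.23 without line 1. Among the steadier genes, the range was 0.07 without line 3 and 0.12 without line 1 for E2f4, 0.04 without line 2 and 0.08 without line 3 for E2f8, 0.05 without line 3 for E2f3 and 0.02 without line 1 for E2f6. Line 1 was the lowest line for 6 of the genes, line 2 for 1 and line 3 for 3, and the like count over all genes was not taken.

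**Figure D4:**
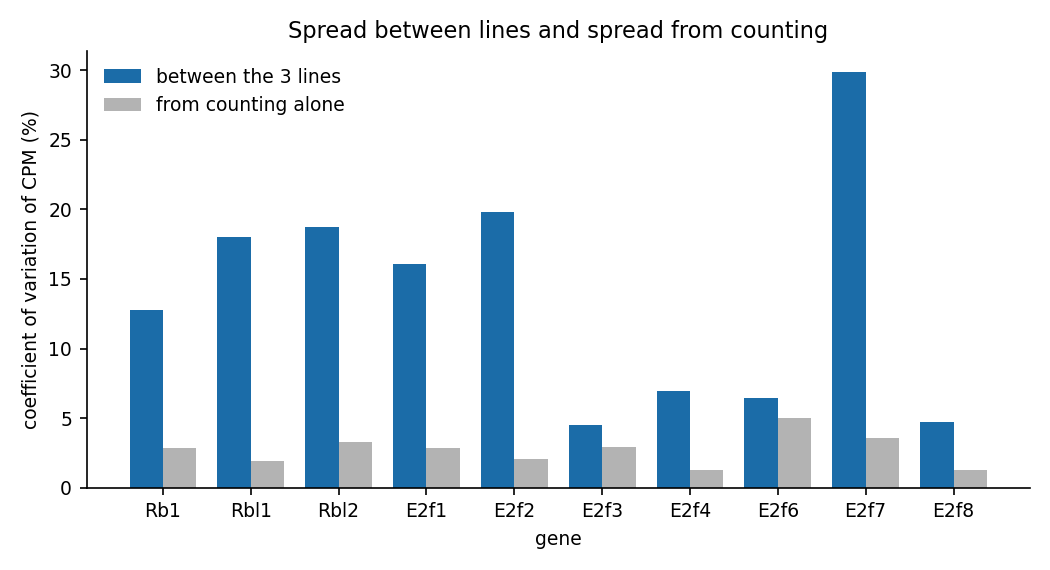
Coefficient of variation of CPM between the 3 lines (blue bars) and the one that counting error alone would give (grey bars), in percent, for each gene. E2f7 varies most, at 29.9% against 3.60% from counting, and E2f3 and E2f6 vary at 4.49% and 6.47%, against 2.96% and 5.04% from counting.

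The counts of 8 of the 10 genes differed between the libraries by more than counting noise (chi-square test of homogeneity with Benjamini-Hochberg adjustment over all 13974 genes, threshold 0.05). By the same test 66.8% of all genes tested differed, and 82.1% of those with at least 1000 counts, so the share among the 10 genes was near the background. The test compares libraries and not conditions. The smallest adjusted p values were 2.50e-38 for E2f2, 4.19e-35 for Rbl1 and 1.94e-33 for E2f7. E2f3 and E2f6 did not pass, with adjusted p = 0.129 and 0.237 in the chi-square test, which does not show that their levels were equal. The difference passed for E2f8 (adjusted p = 3.43e-06) although its range was only 0.14, beside counts of 5212 to 7388 in a library. Rb1 lost the call without line 1 (adjusted p = 0.947), Rbl2 without line 3 (adjusted p = 0.0614) and E2f8 without line 2 (adjusted p = 0.148), and E2f3 passed with scaling to library size alone (adjusted p = 0.0484), all in the chi-square test with Benjamini-Hochberg adjustment. In pairs of lines, 7 of the 10 genes differed between lines 1 and 2, 8 between lines 1 and 3 and 7 between lines 2 and 3. The same tests called 43.9%, 52.4% and 51.8% of all genes, and 56.9%, 64.5% and 64.6% of the genes with at least 1000 counts in sum.

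Genes near each other on a chromosome can differ together between lines, so each gene was set beside the median of its neighbours within 5 Mb. The range of the neighbours' median deviation lay between 0.02 around Rbl2 and 0.18 around E2f3 on the log2 scale, where a median over 15 to 109 genes varies less than a single gene. E2f7 deviated by 0.16, 0.36 and -0.52 from the mean of lines, against 0.03, 0.04 and -0.05 for its 18 neighbours, and its range stayed at 0.78 after subtraction. For E2f2 the range went from 0.53 to 0.48 and for Rbl1 from 0.50 to 0.45. Rb1 deviated against its 39 neighbours, which were highest in line 1 where Rb1 was lowest, and its range rose from 0.33 to 0.50. For E2f3 the range rose from 0.13 to 0.24 with neighbours within 5 Mb and was 0.06 against all genes of its chromosome.

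**Figure D5:**
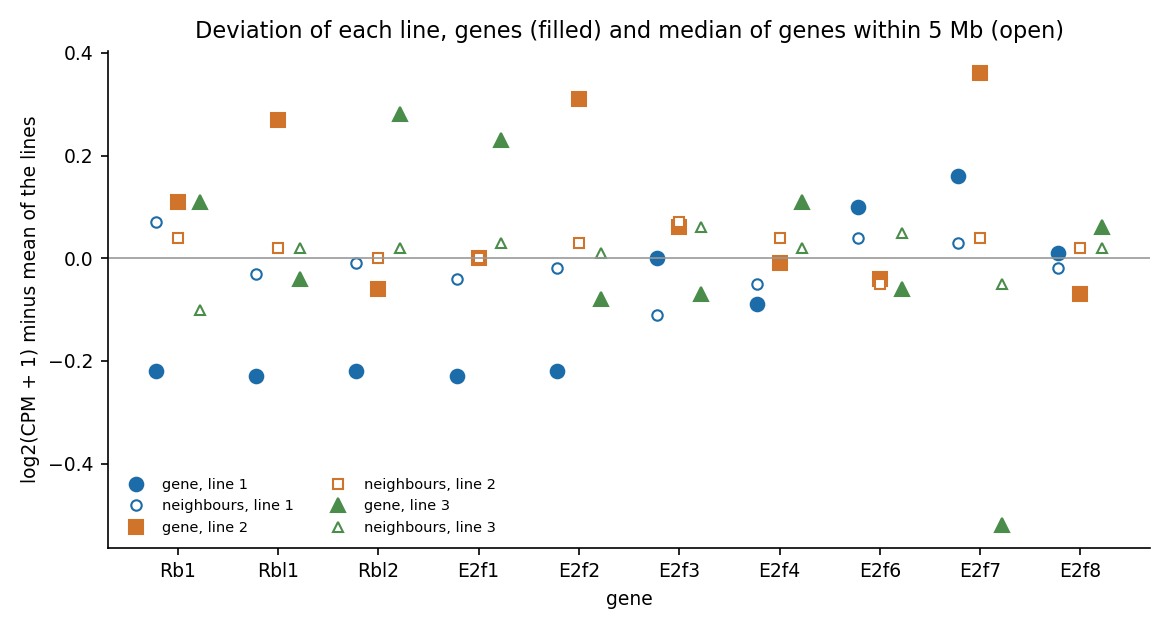
Deviation of log2(CPM + 1) in each line from the average of all 3, for each gene (filled symbols) and for the median of the genes within 5 Mb (open symbols). E2f7 lies at -0.52 in line 3 while its neighbours lie at -0.05, and line 1 is the lowest for all pocket proteins, E2f1, E2f2 and E2f4.

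The DP proteins, which E2F1 to E2F6 need to bind DNA, were represented above all by Tfdp1. Tfdp1 was at 298, 300.1 and 299.5 CPM, or 81.5 ± 0.304 CPM per kb (SD, n = 3). Its range was 0.01 on the log2 scale, and it did not pass the test between libraries (adjusted p = 0.929, chi-square test with Benjamini-Hochberg adjustment). Tfdp2 was at 75.2, 85.7 and 87.4 CPM, lowest in line 1, or 5.90 ± 0.471 CPM per kb. E2f5, the remaining member of the E2F family with a DP partner and close to E2F4 in structure, was at 11.5, 18.2 and 19.7 CPM. Line 1 was again the lowest for E2f5. Its level of 9.26 ± 2.45 CPM per kb (SD, n = 3) was far below that of E2f4. It was near those of E2f3 (9.52 CPM per kb) and Rb1 (9.19 CPM per kb), and above Rbl2, E2f7 and E2f6.

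Kinases and cyclins that act on the pocket proteins were all detected, and the counts of 9 of 9 differed between libraries, beside 66.8% of all genes and 82.1% of those with at least 1000 counts. Cdk4 was the highest per kb of this list, at 570, 618.6 and 616.6 CPM or 185 ± 8.48 CPM per kb (SD, n = 3). Cdk6, the gene that carries the mutation, was at 449.6, 334.3 and 239.4 CPM, or 24.4 ± 7.53 CPM per kb. Line 1 was the highest and line 3 the lowest. The mutation itself is not visible in gene counts. Ccnd1, encoding cyclin D1, varied most, at 21.1, 17.5 and 57.5 CPM with line 3 far above the others.

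The MuvB core forms the DREAM complex with p107 or p130 and E2F4. Of the genes listed for this core and its other partners, 6 of 8 differed between libraries. Such a share lies within the background of 66.8% of all genes and 82.1% of those with at least 1000 counts. The highest per kb of that list was Rbbp4 at 54.5 ± 5.05 CPM per kb (SD, n = 3), and the most variable was Lin54 at 63.6, 55.4 and 45.5 CPM, which was lowest in line 3. Of the partners of E2F6 in Polycomb-type complexes, 8 of 10 differed, also within the background of 66.8% to 82.1%, with Wdr5 the highest at 66.6 ± 1.63 CPM per kb and Max the most variable at 154, 155 and 90.6 CPM. Max was lowest in line 3, and the 10 genes of the list had a median range of 0.30.

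Corepressors recruited by RB differed between libraries in 6 of 6 cases, beside 66.8% of all genes and 82.1% of those with at least 1000 counts. Hdac2 was the highest per kb of them, at 41.3 ± 3.54 CPM per kb (SD, n = 3), and Arid4a was the most variable, at 40.0, 44.2 and 23.3 CPM. Of the ubiquitin ligase subunits that control E2F turnover, 3 of 3 differed, beside the same background, and Fzr1 was both the highest per kb and the most variable, at 95.1, 117 and 114 CPM. Arid4a was lowest in line 3 and Fzr1 in line 1.

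Genes known as E2F targets were expressed throughout, and the counts of 30 of 30 differed between libraries. The same test called 66.8% of all genes and 82.1% of those with at least 1000 counts. All 30 were counted above that minimum, and no background of equal depth was taken. Some of these targets stand also in the lists of cyclins and of MuvB partners. Mcm3, a subunit of the replicative helicase, was the highest per kb, at 482, 612 and 568 CPM. Line 2 was the highest line for 18 of the 30 targets, line 3 for 8 and line 1 for 4. How many of all genes were highest in each line was not counted, so these numbers stand without a background. The median deviation of the targets was -0.14, 0.13 and 0.00 on the log2 scale in lines 1, 2 and 3, also without a background. Their median range was 0.38 beside 0.27 over genes with at least 1000 counts. Tyms, thymidylate synthase, varied most among them, at 109, 90.2 and 43.2 CPM, and ran against the list with line 1 as its highest. The median deviation of the activators was -0.22, 0.06 and -0.07, that of the pocket proteins -0.22, 0.11 and 0.11, and that of the repressors 0.05, -0.03 and 0.00. Line 1 was the lowest for E2f1 and E2f2 but line 3 for E2f3. How far the share of cycling cells moved with these values was not tested.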

How the data were processed

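RNA-seq of 3 stable BCR::ABL1+ Cdk6 KM/KM lines was used. The authors deposited raw counts per gene, made from trimmed reads placed on mm10 by STAR and assigned by FeatureCounts to exons as annotated in Gencode M13. The treatment of strand and of reads with several matches was not given in the sources used here. Per the labels, a SENSE mRNA-Seq kit and single-end sequencing over 50 bases were used, whereas the study's methods name another kit. The table holds 6 columns of other samples, which were not used, so no genotypes were compared.

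Of 50686 genes, 50376 were matched by identifier to Gencode M21 on mm10, which gave coordinates and exon lengths. All 10 members were matched, 8 of them with the same identifier version. The table holds 0 rows that name no gene. Counts were scaled with edgeR 4.0.16 (TMM) in R 4.3.3 to CPM, and ranges were taken on log2(CPM + 1). A gene was tested if its counts summed to 10 or more. Homogeneity of its counts was tested by chi-square against the scaled library sizes, with Benjamini-Hochberg adjustment at 0.05. The p-values set the spread between single libraries of separate lines against counting noise and say nothing of genotype. No library was taken for a duplicate, since lines 1 and 2, the closest pair, differed at 6102 genes. The members and lists were chosen with earlier results of these data known. The genes named are the members, E2f5, Tfdp1, Tfdp2, Cdk4, Cdk6 and, in each list, the highest per kb and the most variable gene with a mean of at least 5 CPM. Genes that overlap a member, sex-linked genes and leading markers of other cell types were named besides, after their values had been seen.

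Scaling by DESeq2 1.42.0 size factors or by library size alone, testing every gene with a count or those with 10 in each library, a pseudocount of 0.1 CPM, the length of the longest transcript, neighbours within 2 Mb or on the whole chromosome, and leaving out each line were tried as alternatives. The background of genes with at least 1000 counts, the limits on windows by counts and GC content, the background of each pair of lines, the sum with E2f5 and the median range of all genes with a line left out were added after the data were seen. The chi-square test was tested on simulated data. Protein sequences were not analysed here. Python 3.11.15 with numpy 2.4.6, pandas 2.3.3, scipy 1.17.1 and matplotlib 3.10.9 was used.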

Additional observations from a re-analysis of the deposited data

How the results depend on the processing

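Of 51 recomputed main results, 46 stayed on the same side or moved little. The median range of the members between lines was 0.39 in the 3 lines and 0.176 to 0.181 with 1 line left out in turn. The other exceptions were the ratio of activator to repressor E2F transcripts, which was 0.289 with all annotated exons as the length and 0.235 with the longest transcript, and the number of genes that differed between libraries, which was 9341 in the 3 lines and 6098 to 7267 with 1 line left out in turn, lowest without line 3, where fewer libraries were compared. The count of members that differed was 8 with DESeq2 size factors, without a filter and with a minimum of 10 counts per library, 9 with library size alone, and 7 without any 1 line. Of 222 values for single members, 200 kept their call or size, 18 moved, 3 lost the call and 1 gained it. The cause was not tested. No paired analysis was possible because all libraries belong to a single genotype. With 3 libraries of 1 genotype, the data show the spread between lines, and an effect of the mutation was not measured. For E2f6, at 342 to 434 counts a line, the coefficient of variation was 6.47% between lines and 5.04% from counting alone.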
